A study of Mus musculus with 4 samples.

Results

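The 10 FoxO and p53 pathway genes followed here were measured through single hematopoietic stem cells (HSCs) of mouse bone marrow. They are Foxo1, Foxo3, Trp53, Mdm2, Trp53inp1, Txnip, Pdcd4, Tob1, Ccng1 and Bcl2. The members were taken by name, as 10 of the 31053 genes listed in the count matrices, and all 10 were found and passed the filter on low counts in every comparison. The study sorted cells of a long-term gate (LT-HSC: no lineage markers, Kit+, Sca1+, CD150+, CD48-) and a short-term gate (ST-HSC: the same but CD150-) from 2 male mice of strain Tie2-bG-Micm x RosaYFP, aged 14 weeks. One library was made per gate and mouse, 4 in all, named LT-HSC 1, LT-HSC 2, ST-HSC 1 and ST-HSC 2 after gate and mouse. They were made with a droplet method that tags each captured RNA molecule at its 3′ end with a unique molecular identifier (UMI). All 4 libraries share the transgenes, so no group without them enters any comparison. The Tie2 promoter in the strain's name is active in endothelial and blood stem cells, and a treatment that would switch on the reporter was not given in the sources used here.

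FoxO transcription factors stay in the nucleus while growth factor signalling through PI3K and Akt is low, and leave it when Akt phosphorylates them. In blood stem cells Foxo3 is known for holding cells out of the cell cycle and for limiting oxidative stress. The p53 protein, encoded by Trp53, accumulates after DNA damage, switches on genes that stop the cycle or start cell death, and is held down by Mdm2, a ubiquitin ligase that is itself a p53 target. Because p53 and FoxO proteins are regulated largely after translation, RNA levels of their genes are not a measure of their activity.

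Promoter windows were read from the RefSeq table of build GRCm38.p6, which matched 9 of the 10 members (Pdcd4 with 2 windows). Trp53inp1 had no window and was not searched. The FoxO binding motif GTAAACA, searched on both strands, lay in the windows of 2 members, Txnip and Mdm2, against 3.17% of all 32851 windows of the same 250 bases. Both stretches are shown because Txnip is the member that differed most between cell classes below and Mdm2 did not differ detectably, so that a shared motif stood beside unlike values. Capitals mark GTAAACA and, in Txnip, a second pair of blocks.
Txnip, chr3:96557707-96557956, + strand: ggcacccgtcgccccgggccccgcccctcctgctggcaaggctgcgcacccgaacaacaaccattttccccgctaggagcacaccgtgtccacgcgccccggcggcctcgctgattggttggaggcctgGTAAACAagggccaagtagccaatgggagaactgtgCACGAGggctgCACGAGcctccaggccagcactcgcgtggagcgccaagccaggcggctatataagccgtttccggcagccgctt
Mdm2, chr10:117710883-117710933, - strand: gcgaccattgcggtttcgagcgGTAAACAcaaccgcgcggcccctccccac
The motif began 121 bases before the annotated start in Txnip and 153 bases before it in Mdm2. The pair CACGAG, any 5 bases and CACGAG again, was searched after the Txnip sequence had been seen. It has the form of the carbohydrate response element through which MondoA and ChREBP act. Its letters lay in 1 of the 32851 windows (0.00304%), that of Txnip. Because the letters searched were those seen in Txnip, that match was fixed beforehand and the share does not measure rarity. The E-box CACGTG (6.02% of windows) and the p53 core pair, CATG, any 6 bases and CATG again (0.490% of windows), were found in no window of the 9 matched members. Only the 250 bases before the annotated start were searched, so sites elsewhere, such as within the gene, could not be found. A match is a description of the letters, not of a bound site.

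The 4 libraries differed in size. The cell filter (1000 genes and 2000 UMIs or more, mitochondrial UMIs 10% or less) kept 22 of 39553 barcodes in LT-HSC 1, whose median over all barcodes was 285 UMIs, and 1217, 2633 and 1707 cells in LT-HSC 2, ST-HSC 1 and ST-HSC 2. Kept cells held between 115305 and 27870823 UMIs per library, with medians of 4494.5 to 10367 UMIs per cell. A count of 3 UMIs, taken as the detection floor, equals 26.0 counts per 1e6 UMIs (CPM) in LT-HSC 1 and 0.108 to 0.226 CPM in the others. Kept barcodes were shared by 2 of the 6 pairs of libraries, 1 barcode each. The gate genes followed the labels: Slamf1, which encodes CD150, differed by 4.43 on the log2 scale (SE 0.33) in favour of LT-HSC, while Kit and Ly6a (Sca-1) differed by 0.12 and -0.14 and did not pass. Cd48, whose protein both gates exclude, was lower in LT-HSC by a log2 difference of -2.82 (SE 0.34). Markers of HSCs, 10 genes such as Procr and Mecom, summed to 1430 to 2012 CPM per library. Summed markers of the neutrophil lineage, a cell type the gates should leave out, came to 26.0, 164, 574 and 1935 CPM in LT-HSC 1, LT-HSC 2, ST-HSC 1 and ST-HSC 2.

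Foxo3 and Foxo1, the forkhead factors themselves, did not pass between the gates. Foxo3 lay at 78.1 CPM in LT-HSC 1, 57.7 in LT-HSC 2, 72.3 in ST-HSC 1 and 83.9 in ST-HSC 2. The first of these values rests on 9 UMIs, and the gates overlap. Foxo1 lay at 8.67, 9.89, 11.2 and 7.15 CPM in the same order. Its value in LT-HSC 1 is 1 UMI, under the detection floor, and the gates again overlap. The fitted difference, LT-HSC minus ST-HSC, was -0.40 on the log2 scale for Foxo3 (SE 0.19, edgeR adjusted p = 0.302) and 0.08 for Foxo1 (SE 0.28, adjusted p = 0.996), against a threshold of 0.05.

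Trp53 and its brake Mdm2 did not pass between the gates. Trp53 was measured at 156, 177, 180 and 189 CPM in LT-HSC 1, LT-HSC 2, ST-HSC 1 and ST-HSC 2, and its fitted log2 difference was -0.11 (SE 0.19, edgeR adjusted p = 0.987). Mdm2 was measured at 43.4, 39.8, 42.2 and 34.9 CPM and differed by 0.05 (SE 0.21, adjusted p = 0.996). Ccng1, cyclin G1, a p53 target that feeds back on Mdm2 through a phosphatase, lay at 8.67, 29.1, 30.8 and 27.4 CPM and differed by -0.06 (SE 0.21, adjusted p = 0.996). The low Ccng1 value is 1 UMI in the library of 22 cells; over all barcodes of that library the level was 17.3 CPM.

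Trp53inp1, a p53-induced protein with roles in stress-induced cell death and autophagy, was the one member past the threshold between the gates. It lay at 34.7 CPM in LT-HSC 1, 11.5 in LT-HSC 2, 23.6 in ST-HSC 1 and 18.8 in ST-HSC 2. The LT-HSC values thus lie on both sides of the ST-HSC values, but the high one is 4 UMIs with a 95% Poisson interval of 9.45 to 88.8 CPM; over all barcodes of that library, 151 UMIs gave 11.1 CPM (9.42 to 13.0), below both ST-HSC libraries. That sum holds other RNA than the 22 kept cells: HSC markers came to 1182 CPM against 2012, erythroid markers to 2170 against 859 and neutrophil lineage markers to 308 against 26.0. The part of free RNA or of other cells in the 11.1 CPM was not tested. The weighted fit on kept cells gave -0.81 (SE 0.24, edgeR adjusted p = 0.0180), and the fit with all barcodes of that library gave -0.80 (SE 0.17, adjusted p = 0.0120), where 8.87% of all genes passed. The call was lost with the mouse as a block (-0.62, adjusted p = 0.256), with DESeq2 on kept cells (-0.39, adjusted p = 1) and without ST-HSC 1 (-0.66, adjusted p = 0.186), and the sign turned without LT-HSC 2 (0.59, adjusted p = 0.871). With the block and all barcodes together it held at -0.79 (adjusted p = 0.00120). Without cells that carried other types' markers, by lists shortened after the data had been seen, it was -0.83 (SE 0.24, adjusted p = 0.00902).

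Txnip, Pdcd4 and Tob1 restrain growth by different routes. Txnip binds thioredoxin and lowers glucose uptake; its RNA lay at 572, 655, 475 and 484 CPM in LT-HSC 1, LT-HSC 2, ST-HSC 1 and ST-HSC 2. As point values, both LT-HSC libraries were above both ST-HSC libraries, yet the log2 difference of 0.35 (SE 0.19) did not pass (edgeR adjusted p = 0.473). The LT-HSC 1 value rests on a mean of 3 Txnip UMIs per cell in 22 cells. Pdcd4, which blocks the helicase eIF4A in translation, lay at 208, 169, 136 and 232 CPM, so that the 2 ST-HSC libraries enclosed both LT-HSC libraries (-0.08, SE 0.20, adjusted p = 0.995). Tob1, which recruits the CCR4-NOT deadenylase to messenger RNA, lay at 43.4, 24.5, 29.7 and 37.3 CPM (-0.40, SE 0.22, adjusted p = 0.466), and the gates overlap.

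Bcl2, which blocks mitochondrial cell death, lay at 60.7 CPM in LT-HSC 1, 61.3 in LT-HSC 2, 46.7 in ST-HSC 1 and 37.9 in ST-HSC 2. The point values do not overlap between the gates, and the log2 difference was 0.52 (SE 0.20, edgeR adjusted p = 0.108). The LT-HSC 1 value rests on a mean of 0.318 UMIs per cell in 22 cells. In its 20 cells without a UMI of Mki67 or Top2a, 6 UMIs gave 58.5 CPM. The exact Poisson interval there was 21.5 to 127 CPM, which holds both ST-HSC values. LT-HSC 1 therefore cannot be placed above the ST-HSC libraries within counting error. With the mouse as a block the difference was 0.63 (SE 0.19) and passed (adjusted p = 0.0198) among 6.76% of all genes, and it also passed under a looser cell filter (0.61, adjusted p = 0.0434).

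In all, 1 of the 10 members passed between the gates, against 6.72% of all 12656 genes tested (3.6% higher and 3.13% lower), and 3 of the 10 had an unadjusted p below 0.05. The members' median log2 difference was -0.07, beside -0.02 over all genes. This fit did not pair the libraries by mouse, although both gates were sorted from the same mice. With the mouse as a block, Bcl2 passed in place of Trp53inp1, among 6.76% of all genes.

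**Figure D1:**
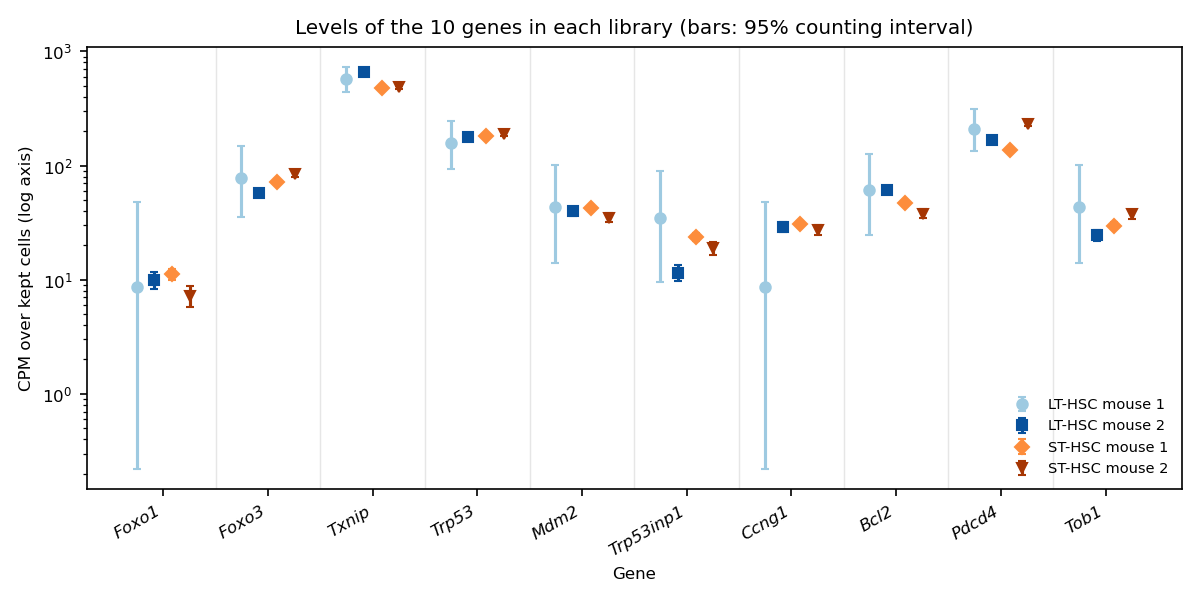
Level of each of the 10 members in CPM (log axis) in the 4 libraries, one point per library over kept cells, with exact Poisson 95% intervals that cover counting error only; the wide intervals belong to LT-HSC 1, with 22 cells. The points of Bcl2 and Txnip are higher in both LT-HSC libraries than in both ST-HSC libraries. For Bcl2 they lie at 60.7 and 61.3 against 46.7 and 37.9 CPM. The Bcl2 point of LT-HSC 1 rests on a mean of 0.318 UMIs per cell.

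Among the other genes of the pathways, from 8 lists holding 137 distinct genes, 120 were tested between the gates; 5 were higher in LT-HSC, 4 were lower and 111 did not pass, beside 6.72% called over all genes. None of 15 p53 regulators, 22 FoxO pathway genes and 10 translation partners of Pdcd4 passed by edgeR, with 0, 2 and 0 of them at an unadjusted p below 0.05. The p53 targets split, with 2 of 25 higher and 2 lower. Plk2, a polo-like kinase, was the most different at 14.1 ± 3.19 CPM in LT-HSC and 1.20 ± 0.507 in ST-HSC (mean ± SD, n = 2 each; log2 difference 3.24, SE 0.37). Btg2, an antiproliferative relative of Tob1 that stands in 2 of the lists, went the other way at 8.84 ± 0.914 against 31.6 ± 8.92 CPM (-1.75, SE 0.25). The LT-HSC means of Plk2 and Btg2 lay under the 26.0 CPM floor of LT-HSC 1, so that library added few UMIs to either. In cells without a UMI of Mki67 or Top2a, Plk2 in LT-HSC came to 7.19 ± 10.2 CPM. Xpc, a DNA damage sensor of excision repair, lay at 40.8 ± 11.4 against 74.8 ± 3.68 CPM (-0.65).

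Of 22 FoxO targets, 1 was higher and 2 were lower in LT-HSC. Cited2, a CBP/p300-binding regulator needed for stem cell maintenance, lay at 282 ± 41.7 CPM in LT-HSC and 164 ± 10.7 in ST-HSC (log2 difference 0.71, SE 0.19). Bcl2l1, which encodes the Bcl2 relative Bcl-xL, was the one of 12 Bcl2 family genes that passed, at 15.3 ± 1.55 against 7.92 ± 2.46 CPM (0.88, SE 0.27). Arrdc4, an arrestin domain gene of the same family as Txnip, was the one of 11 in its list, at 19.0 ± 3.74 against 12.6 ± 0.903 CPM (0.77, SE 0.23). The LT-HSC means of Bcl2l1 and Arrdc4 also lay under the floor of LT-HSC 1. Markers of other cell types moved with the gate as well. Lower in LT-HSC by the fit were 8 of 9 neutrophil lineage markers tested and 5 of 7 erythroid markers such as Hbb-bs (-3.28, SE 0.32). The means of Hba-a2, one of the 5, went the other way, at 12.7 ± 16.8 CPM in LT-HSC and 7.50 ± 7.59 in ST-HSC. Summed erythroid markers came to 859, 854, 927 and 937 CPM in LT-HSC 1, LT-HSC 2, ST-HSC 1 and ST-HSC 2. Also lower were Nkg7 (-1.70, SE 0.21), listed for T and NK cells, and 2 of 4 mast cell and basophil markers (Prss34 and Mcpt8). Only 5 kept cells of ST-HSC 1 and 2 of ST-HSC 2 carried 3 or more UMIs of the mast cell and basophil list. Higher were 2 of 4 megakaryocyte markers, Gp9 (1.47, SE 0.22) and Itga2b (1.09, SE 0.22). Their part in the values of these lists was not tested.

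The second question was how the members differ between cells with and without a UMI of Mki67 or Top2a, RNAs that build up from S phase to mitosis. Such cells made up 219 of 1217 cells in LT-HSC 2, 583 of 2633 in ST-HSC 1 and 223 of 1707 in ST-HSC 2. LT-HSC 1 had 2 such cells and is left out of the test, which compared the 2 classes within each of the other 3 libraries (6 sums, library as a term). A cell with more UMIs in total has more chances to show one of these genes. The median depth was 14351, 12196 and 9611 UMIs in cells with, against 9960, 9452.5 and 7313 in cells without, in the 3 libraries in the order above. When each cell was thinned to 2000 UMIs, the share of cells with Mki67 or Top2a fell from 18.0%, 22.1% and 13.1% to 6.49%, 7.33% and 4.63%.

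Txnip was lower in cells with Mki67 or Top2a in each of the 3 libraries. In LT-HSC 2 it lay at 722 CPM in cells without and 449 in cells with. In ST-HSC 1 the values were 511 and 386 CPM, and in ST-HSC 2 they were 514 and 345 CPM. The 3 with-values were 386, 345 and 449, all below the 3 without-values. The log2 difference, with minus without, was -0.54 (SE 0.058, edgeR adjusted p = 1.3e-06). In LT-HSC 1, outside the test, 4 Txnip UMIs in the 2 cells with gave 313 CPM and 62 UMIs in the 20 cells without gave 605.

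Trp53inp1 was the other member that was lower in cells with Mki67 or Top2a. It lay at 12.4 CPM in cells without and 8.89 in cells with in LT-HSC 2, at 25.3 and 19.4 in ST-HSC 1, and at 19.5 and 15.7 in ST-HSC 2. The difference had the same sign in all 3 libraries and came to -0.36 (SE 0.11, edgeR adjusted p = 0.0191). It did not pass without ST-HSC 1 (-0.37, adjusted p = 0.182), without ST-HSC 2 (-0.38, adjusted p = 0.0524) or by DESeq2 (-0.37, adjusted p = 0.327).

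Trp53 went the other way. It rose from 167 to 210 CPM in LT-HSC 2, from 173 to 196 in ST-HSC 1 and from 184 to 213 in ST-HSC 2, all 3 with-values lying above all 3 without-values. The log2 difference was 0.25 (SE 0.055, edgeR adjusted p = 0.00171). In LT-HSC 1, 5 Trp53 UMIs in the cells with gave 391 CPM and 13 in the cells without gave 127.

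Bcl2 was also higher in cells with Mki67 or Top2a, by a smaller and less even margin. It lay at 59.8 and 65.9 CPM in cells without and with in LT-HSC 2, at 43.8 and 54.0 in ST-HSC 1, and at 37.8 and 38.5 in ST-HSC 2. The log2 difference was 0.21 (SE 0.071, edgeR adjusted p = 0.0350), and without ST-HSC 1, where it was largest, it was 0.10 and did not pass (adjusted p = 0.512).

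The other 6 members did not pass. Foxo3 was lower in cells with in each library, at 58.2 and 56.4 CPM, 74.6 and 66.5 CPM, and 86.2 and 73.2 CPM without and with in LT-HSC 2, ST-HSC 1 and ST-HSC 2 (-0.14, SE 0.056, edgeR adjusted p = 0.0783). Pdcd4 had the same order of classes in each library (170 and 165, 141 and 123, 236 and 213 CPM; -0.12, SE 0.055, adjusted p = 0.115). Tob1 was uneven: it lay at 27.1 CPM without and 16.6 with in LT-HSC 2, but at 29.8 and 29.5 CPM, and at 37.2 and 37.7 CPM, in the ST-HSC libraries (-0.13, SE 0.11, adjusted p = 0.407). Mdm2 (0.11, SE 0.074, adjusted p = 0.306), Ccng1 (-0.16, SE 0.091, adjusted p = 0.196) and Foxo1 (-0.10, SE 0.16, adjusted p = 0.733) had the smallest differences against their errors, with Tob1.

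With 4 of the 10 members called, 2 in each direction, the count stands beside 30.7% of all 12188 genes tested (17.3% higher and 13.4% lower). The members' count lies near that share, so it is no result about the set. Whether the class difference itself varied between the gates was tested with an interaction term, which for LT-HSC rests on 1 library. None of the 10 members passed by edgeR, against 0.886% of genes, and 2 had an unadjusted p below 0.05. For Tob1 the class difference in LT-HSC minus that in ST-HSC was -0.76 (SE 0.23, edgeR adjusted p = 0.107) and for Txnip it was -0.25 (SE 0.090, edgeR adjusted p = 0.262).

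**Figure D2:**
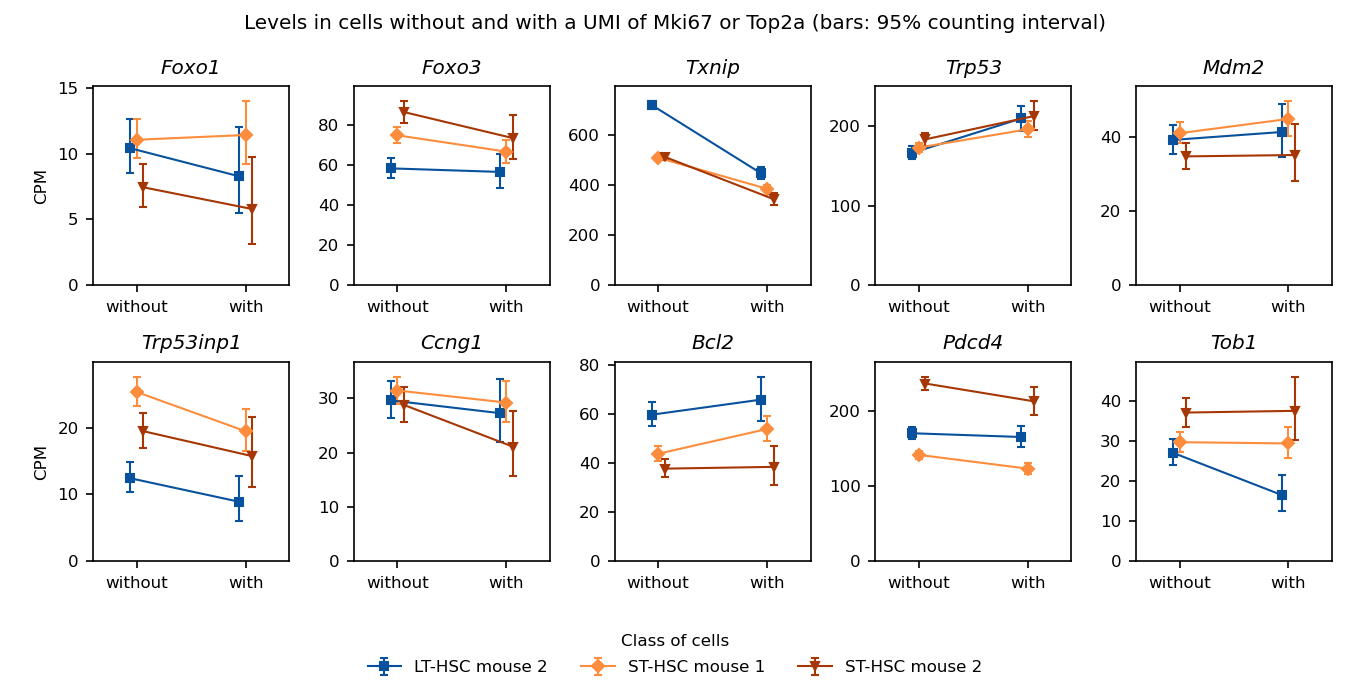
Level in CPM of each of the 10 members in cells without and with a UMI of Mki67 or Top2a, one panel per gene, one line per library (LT-HSC 2, ST-HSC 1 and ST-HSC 2) and exact Poisson 95% intervals for counting error only. All 3 Txnip lines run down, to 449, 386 and 345 CPM, and all 3 Trp53 lines run up, to 210, 196 and 213 CPM, while the Tob1 line of LT-HSC 2 ends at 16.6 CPM and those of ST-HSC stay near 29.5 and 37.7.

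Cells were next ordered by their UMIs of Mki67 and Top2a together, in classes of 0, 1, 2 to 4 and 5 or more. Txnip was lower at each step, at 722, 566, 441 and 307 CPM in LT-HSC 2 and at 511, 454, 383 and 281 CPM in ST-HSC 1. In ST-HSC 2 it lay at 514, 370, 425 and 245 CPM, with one step upward. Trp53 lay at 167, 170, 219 and 255 CPM, at 173, 185, 193 and 216 CPM, and at 184, 192, 238 and 228 CPM in the same libraries. Every class with 5 or more UMIs was thus below its library's first class for Txnip and above it for Trp53.

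Bcl2 lay at 43.8, 47.3, 50.9 and 66.9 CPM over the 4 classes in ST-HSC 1, but at 59.8, 66.0, 68.0 and 64.4 CPM in LT-HSC 2 and at 37.8, 40.4, 13.2 and 53.9 CPM in ST-HSC 2, with no steady course. Trp53inp1 had none either, with 28.3 CPM in the class of 2 to 4 UMIs of ST-HSC 2 beside 19.5 in the class of 0. The classes of 5 or more held 54, 117 and 46 cells, and depth rose with class, to medians of 20557, 18814 and 15717.5 UMIs. When cells needed 3 or more UMIs of the 2 genes to count as with, the edgeR log2 differences grew to -0.87 for Txnip, 0.42 for Trp53, -0.63 for Trp53inp1 and 0.39 for Bcl2, all past the threshold. Foxo3 (-0.42) and Pdcd4 (-0.24) then passed as well.

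**Figure D3:**
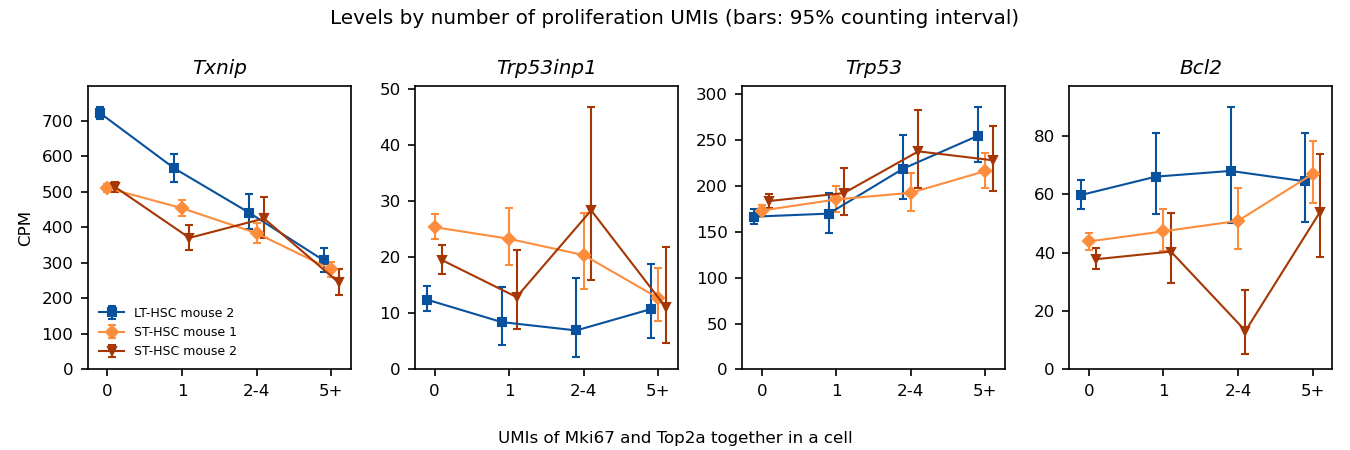
Level in CPM of the 4 members that differed between the classes, against the number of Mki67 and Top2a UMIs in a cell (0, 1, 2 to 4, 5 or more), one line per library (LT-HSC 2, ST-HSC 1 and ST-HSC 2), with exact Poisson 95% intervals for counting error only. Txnip ends at 307, 281 and 245 CPM, below its starting levels of 722, 511 and 514, and Trp53 ends at 255, 216 and 228 CPM, above its own.

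Since the classes differ in depth, the members were also read against depth alone, using only cells without Mki67 or Top2a. All kept cells of a library were first cut into 4 bins of equal number, so the cells without are not equal in number between bins. Txnip was lower in deeper cells there too. From the shallowest to the deepest bin it lay at 857, 851, 692 and 516 CPM in LT-HSC 2, at 634, 557, 479 and 391 CPM in ST-HSC 1 and at 654, 553, 496 and 400 CPM in ST-HSC 2. Deepest minus shallowest, the log2 difference was -0.73 to -0.70 over the 3 libraries, beside -0.54 between the classes. The number of Txnip UMIs per cell was no lower in the deepest bin than in the shallowest: it was 7.57 against 5.58, 5.52 against 4.38 and 4.20 against 3.50 in the 3 libraries.

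For the other called members the deepest and the shallowest bin differed in the direction of the class difference. Trp53 lay at 141, 158, 177 and 184 CPM in LT-HSC 2, at 149, 176, 176 and 189 CPM in ST-HSC 1, and at 149, 168, 196 and 209 CPM in ST-HSC 2. Trp53inp1 was lower in the deepest than in the shallowest bin by a log2 difference of -0.60 to -0.55, and Bcl2 was higher by 0.11 to 0.52. For Foxo1 the depth difference (-0.98 to -0.52) was near that of Txnip, although Foxo1 did not pass between the classes. Foxo3 (-0.35 to -0.21), Mdm2 (-0.53 to -0.08), Tob1 (-0.35 to -0.13) and Ccng1 (-0.12 to -0.03) were lower in deep cells in all 3 libraries, and Pdcd4 was higher (0.03 to 0.19).

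Within the depth bins, Txnip was lower in cells with Mki67 or Top2a in the deepest bin of all 3 libraries. There it lay at 348 CPM in cells with and 516 in cells without in LT-HSC 2, at 314 and 391 CPM in ST-HSC 1, and at 276 and 400 CPM in ST-HSC 2. In the bin next to it the order was the other way in all 3 libraries, with 729 CPM in cells with and 692 in cells without, 507 and 479 CPM, and 539 and 496 CPM. In the bin below that, cells with and without lay at 855 and 851, 564 and 557, and 484 and 553 CPM, with no common order. In the shallowest bin cells with were again lower, at 678, 574 and 496 CPM, over 20, 54 and 18 cells with. The deepest bin held 135 of 219, 311 of 583 and 128 of 223 cells with Mki67 or Top2a.

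**Figure D4:**
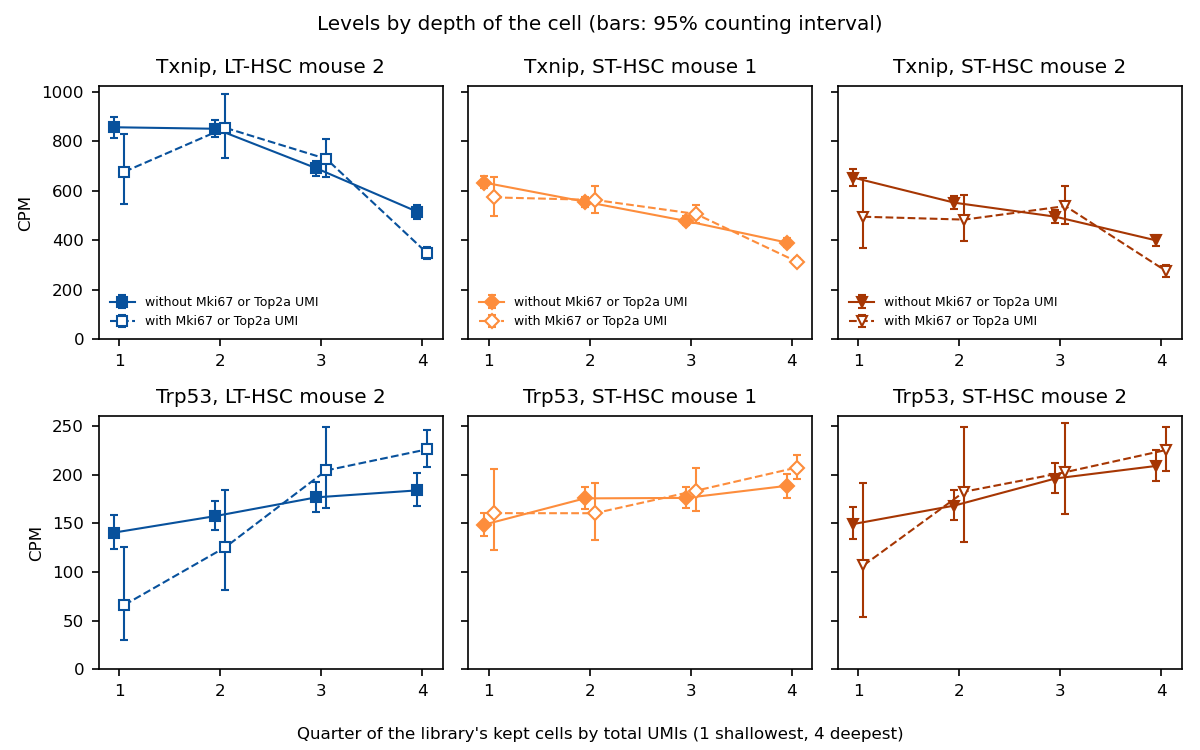
Level in CPM of Txnip (upper row) and Trp53 (lower row) in 4 bins of equal cell number from shallowest (1) to deepest (4), in cells without (filled, solid) and with (open, dashed) a UMI of Mki67 or Top2a, for LT-HSC 2, ST-HSC 1 and ST-HSC 2, with exact Poisson 95% intervals for counting error only. Among cells without, Txnip runs from 857, 634 and 654 CPM in bin 1 to 516, 391 and 400 CPM in bin 4, where the cells with lie at 348, 314 and 276 CPM; Trp53 runs from 141, 149 and 149 to 184, 189 and 209 CPM.

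The test of the classes was repeated with thinned cells and within limits of depth. Thinning to 2000 UMIs per cell evens the chance of showing Mki67 or Top2a. Each cell keeps the composition it had at its original depth, so thinning does not control for that depth. With thinning, Txnip passed (-0.63, edgeR adjusted p = 0.000815), Trp53 did not pass (0.40, adjusted p = 0.0686), and Bcl2 turned (-0.24, adjusted p = 0.768). Without the deepest 10% of cells in each library, Txnip passed at -0.17 (adjusted p = 0.00162), while Trp53 (0.05, adjusted p = 0.751), Trp53inp1 (0.00, adjusted p = 0.999) and Bcl2 (0.10, adjusted p = 0.702) did not. Among cells below their library's median depth no member passed, Txnip lying at -0.16 (adjusted p = 0.471) and Trp53 at -0.15 (adjusted p = 0.856). Among cells above it, Txnip (-0.44, adjusted p = 5.14e-05) and Trp53 (0.20, adjusted p = 0.0302) passed. The parts of depth and of the cell cycle in these differences were not separated further, and doublets, which would be deep, were not called.

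**Figure D5:**
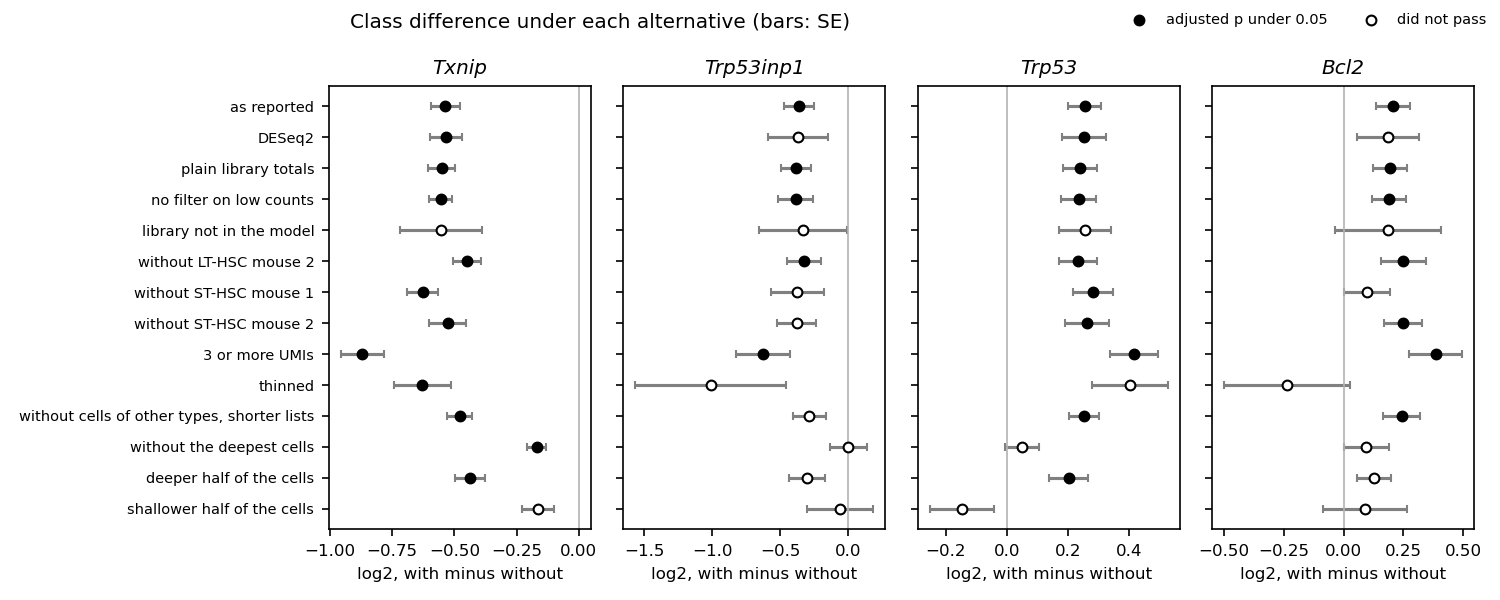
Log2 difference between cells with and without Mki67 or Top2a for Txnip, Trp53inp1, Trp53 and Bcl2, as reported and under each alternative, with bars of 1 SE and filled points where the adjusted p is below 0.05 (DESeq2 in its own row, edgeR in the others). Txnip lies below 0 in each setting shown, from -0.87 with 3 or more UMIs to -0.16 in the shallower cells, and Trp53 runs from 0.42 to -0.15.

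Markers of cell types moved with the classes as well. Of 10 HSC markers, 9 were lower in cells with Mki67 or Top2a, and their summed level was 1770 CPM without and 1286 with in LT-HSC 2; for ST-HSC 1 these sums were 1616 and 1262 and for ST-HSC 2 they were 1504 and 1089. Of 6 erythroid markers tested, 5 were higher, Car1, Hbb-bs, Klf1, Hba-a1 and Hba-a2. Of 8 neutrophil lineage markers, Elane and Mpo were higher and 3 were lower. The mast cell marker Cpa3 (1.38, edgeR adjusted p = 0.0249) and Nkg7 (0.89, adjusted p = 1.19e-07), listed for T and NK cells, were higher, each the one gene tested of its list. Cells with 3 or more UMIs of the T and NK list numbered 38, 318 and 157 in LT-HSC 2, ST-HSC 1 and ST-HSC 2. With Nkg7 left out of the list they numbered 0, 1 and 1, so the Nkg7 value does not show T or NK cells. Summed mast cell and basophil markers came to 451 CPM with and 5.29 without in ST-HSC 2, beside 4.52 and 23.1 in ST-HSC 1 and 6.74 and 2.30 in LT-HSC 2. Only 2 kept cells of ST-HSC 2 carried 3 or more UMIs of that list. Much of the 451 CPM, from 1090 UMIs, thus rests on few cells and does not describe the class. Among the other cell type lists, Itga2b was higher, and Pf4, Cd79b and C1qb were lower. Cells with 3 or more UMIs of the B cell list numbered 18, 29 and 17 in LT-HSC 2, ST-HSC 1 and ST-HSC 2, and 0 in each with Cd79b left out. The gate genes moved too. Cd48 was higher in cells with Mki67 or Top2a (1.22, edgeR adjusted p = 7.11e-05). Ly6a (-0.61, adjusted p = 2.2e-06) and Kit (-0.16, adjusted p = 0.0498) were lower, and Slamf1 did not pass (-0.17, adjusted p = 0.612). The part of these cell types in the members' values was not tested other than by leaving marked cells out. With cells carrying 3 or more UMIs of other cell types' markers left out, by lists shortened after the data had been seen, Txnip lay at -0.48 (edgeR adjusted p = 3.32e-09), Trp53 at 0.25 (adjusted p = 0.00012) and Bcl2 at 0.24 (adjusted p = 0.0158), all past the threshold, and Trp53inp1 at -0.28 did not pass (adjusted p = 0.0774).

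Among the other pathway genes, 121 were tested between the classes; 20 were higher in cells with Mki67 or Top2a, 26 were lower and 75 did not pass. These counts stand beside the 30.7% of all genes called (17.3% higher and 13.4% lower). Of the FoxO targets, 11 of 22 were lower and 1 was higher, with a median log2 difference of -0.24 beside -0.03 over all genes. Cited2 (-0.46), Gabarapl1 (-0.41), an autophagy gene, Map1lc3b (-0.29), which encodes the autophagosome protein LC3B, and Ccng2 (-0.45), cyclin G2 of arrested cells, were among the lower ones. The count of lower FoxO targets was 11 with 3 or more UMIs as the class limit, 8 without cells of other types, 10 in cells above the median depth, 1 without the deepest cells, 1 after thinning and 0 in cells below the median depth. Calls over all genes fell as well without the deepest cells, after thinning and below the median depth, as the closing section gives. The drop is therefore no result about FoxO targets. Upstream of FoxO, 5 of 22 were lower, among them Pik3r1 (-0.39), Igf1r (-0.25), Pik3cd (-0.40) and Insr (-0.36), which carry growth factor signals, and 1 was higher.

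Upstream and downstream of p53 genes were called in both directions, and their counts are read beside the 30.7% called over all genes. Of 15 p53 regulators, 4 were higher and 3 lower; the checkpoint kinases Chek1 (2.28) and Chek2 (0.74) and the DNA repair kinase Prkdc (0.46) were higher, and the p53 ubiquitin ligase Rchy1 (-0.28) was lower. Of 26 p53 targets, 5 were higher and 4 lower. Ckap2 (2.57), a spindle protein, was higher, while Sesn1 (-0.28), an mTORC1 inhibitor that FoxO factors also induce, Rrm2b (-0.42), a ribonucleotide reductase subunit, and Bbc3 (-0.39), the cell death protein PUMA, were lower. Their medians were -0.01 for regulators and -0.07 for targets.

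Partners of single members were also read. Txn1, the thioredoxin that Txnip binds, was higher at 649 ± 20.9 CPM in cells with and 425 ± 18.0 in cells without (n = 3; log2 difference 0.61), opposite to Txnip, and the arrestin domain gene Arrdc2 was lower (-0.52). Of 10 translation partners of Pdcd4, Eif4a3 (0.43), Eif4e (0.37) and Eif4a1 (0.31) were among 4 that were higher, and Eif4a2 (-0.31) was lower. In the family of Tob1, Btg1 (-0.42) was lower and the deadenylase complex genes Cnot1 (0.20) and Cnot6 (0.25) were higher. Of 12 Bcl2 family genes, 2 were higher, among them Bad (0.22), which promotes cell death, and 2 were lower, Mcl1 (-0.19), a survival protein, and Bbc3.

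The gates were then compared within cells without Mki67 or Top2a, which make up most cells of the first gate comparison. Trp53inp1 again was the one member that passed (-0.77, SE 0.24, edgeR adjusted p = 0.0247), against 6.89% of 12273 genes (3.87% higher and 3.02% lower), and with the mouse as a block it was -0.55 and did not. Bcl2 was 0.56 (SE 0.20, adjusted p = 0.0769), and 0.64 and past the threshold with the block. Foxo3 (-0.42, adjusted p = 0.246) and Txnip (0.38, adjusted p = 0.410) did not pass.

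For the members with a mean of 20 CPM or more that passed a comparison, the genes with the nearest profile over the 6 sums were found by Euclidean distance of centred log2 CPM among 6286 genes. For Txnip these were Plxna4os1 (distance 0.130), Mecom (0.164) and Gabarapl1 (0.185), against a median distance of 0.922. For Trp53 they were Sf3b6 (0.053), Polr2j (0.062) and Fdx1 (0.076), with a median of 0.517. For Bcl2 they were Nomo1 (0.205), Nedd4 (0.214) and Isoc1 (0.229), with a median of 0.858. The 6 sums come from 3 libraries, so the distances describe those libraries.

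Single cells carried few UMIs of most members. Txnip averaged 7.13, 5.03 and 3.84 UMIs per cell in LT-HSC 2, ST-HSC 1 and ST-HSC 2, with up to 31, 29 and 32 in a cell, and its variance was 2.79, 2.42 and 2.12 times its mean, a spread that includes the spread in depth. Foxo1 and Mdm2, with means below 1 UMI, had ratios of variance to mean of 0.985 to 1.06 and 0.997 to 1.04, near the value of 1 that counting alone gives. Across single cells thinned to 2000 UMIs, Pearson's r between members was read for 45 pairs per library. The highest was 0.053 (Foxo3 and Tob1) in LT-HSC 2, 0.047 (Pdcd4 and Tob1) in ST-HSC 1 and 0.069 (Txnip and Pdcd4) in ST-HSC 2. The lowest was -0.063 (Foxo1 and Txnip), -0.032 (Txnip and Bcl2) and -0.047 (Trp53 and Txnip) in the same order. These values are too weak in counts this sparse to read as a relation.

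By position in GENCODE vM21 (GRCm38), Txnip spans chr3:96557957-96561883 and is overlapped on the other strand by Gm15441, and Trp53 spans chr11:69580359-69591873 with no overlapping gene. Trp53inp1 spans chr4:11156431-11174379, also without one. Bcl2 spans chr1:106538178-106714274 and is overlapped by Mir3473f and Gm37053 on its own strand and D630008O14Rik on the other. Foxo1 is overlapped by Gm38034 on its own strand and Gm20402 on the other. No source used here says whether the counting used strand, so reads of these overlapping genes may be shared.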

How the data were processed

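Raw UMI counts per gene and barcode were deposited by the authors. The submitters' processing notes name Cell Ranger 3.1.0 and build mm10, and the matrices carry software version 3.0.2, per the file headers. No source used here says how the authors chose barcodes. Cells needed at least 1000 genes and 2000 UMIs and at most 10% mitochondrial UMIs. No doublet caller was run. Counts were summed per library (and class) and tested in edgeR 4.0.16 under R 4.3.3 with its quasi-likelihood F-test, TMM scaling and filterByExpr; log2 differences come from it unless DESeq2 1.42.0 is named. The adjusted p is that of Benjamini and Hochberg across every tested gene, with a threshold of 0.05, and SE is the log2 difference divided by the square root of F. Per-library CPM use plain totals; means ± SD use TMM-scaled totals. Intervals are exact Poisson at 95% and, like the floor, cover counting error only. On simulated counts the gate test found 90% of genes set to a log2 change of 1, with 11 false calls among 12493 genes. The class test found 100%, with 8 false calls among 12040. The counts were drawn from the same model with its fitted dispersion, and only genes at 20 CPM or more were changed. The recovery therefore does not speak for smaller changes, weaker genes or a different spread in the real counts. Libraries of the same number come from the same mouse, so the numbers pair them; deviations from the gate means in mouse 1 correlated at 0.141 across 6262 genes.

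The members and lists were chosen with earlier results of these data known. Text names the 10 members, up to 4 genes per list that passed with a mean of 5 CPM or more (smallest p first), the nearest profiles, and markers. Alternatives were a looser cell filter, DESeq2, plain totals, no count filter, the replicate block, left-out libraries, stricter classes, thinning, depth limits, marker-based cell removal and, added after the data had been seen, all barcodes with the block or with DESeq2, shortened marker lists and cells above or below the median depth.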

Additional observations from a re-analysis of the deposited data

How the results depend on the processing

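Of the members' values under the alternatives, 120 of 140 in the gate comparison, 92 of 109 in the gate comparison within cells lacking Mki67 and Top2a (the second one here) and 95 of 130 in the class comparison kept both their direction and their side of the threshold; the cause of the other changes was not tested. The number of genes called between the gates was 851, and 53 by DESeq2, 99 without cells of other types (which removed most cells), 1477 with the replicate block and all barcodes of LT-HSC 1 together, and 1 to 967 with a library left out, the lowest without LT-HSC 2. The paired fit with the replicate block alone called 856 genes and 1 member, Bcl2 in place of Trp53inp1. Members called were 1, and 0 by DESeq2, 0 without cells of other types, 2 under the looser cell filter and 0 to 1 with a library left out. In the second comparison 846 genes were called, 741 with the replicate block, 42 by DESeq2, 84 without cells of other types and 8 to 810 with a library left out; members called were 1, and 0, 0, and 0 to 1 in the last 3 of these settings, 2 under the looser filter and 2 without cells of other types by the shorter lists. Between the classes 3741 genes and 4 members were called. DESeq2 called 1781 and 2, the fit with no replicate block 905 and 0, thinned cells 428 and 1, cells without the deepest 714 and 1, and cells below the median depth 92 and 0. Above the median depth 2 members were called, and 2863 to 3361 genes and 2 to 4 members with a library left out.

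The signs of small differences turned. Between the gates, Pdcd4 was 0.055 under the looser filter, 0.11 with all barcodes of LT-HSC 1, 0.15 with the replicate block added and 0.11 with DESeq2 added. Mdm2 was -0.0043 under the looser filter and -0.022 without cells of other types, where Ccng1 was 0.034. In the second comparison, Foxo1 was -0.24 by DESeq2, Pdcd4 was 0.029 under the looser filter, and Mdm2 was -0.21 and Ccng1 0.074 without cells of other types. Between the classes, Bcl2 was -0.24 when thinned. Without the deepest cells, Foxo1 was 0.13, Foxo3 0.10, Trp53inp1 0.00075, Pdcd4 0.010, Tob1 0.23 and Ccng1 0.016. Below the median depth, Foxo1 was 0.26, Trp53 -0.15, Pdcd4 0.046, Tob1 0.55 and Ccng1 0.12. With a library left out, the gate values ranged from -0.21 to 0.45 for Foxo1, -0.070 to 0.18 for Mdm2, -0.95 to 0.59 for Trp53inp1, -0.41 to 0.38 for Pdcd4 and -0.54 to 0.26 for Tob1. In the second comparison they ranged from -0.084 to 0.45 for Foxo1, -0.021 to 0.23 for Mdm2, -0.93 to 0.66 for Trp53inp1, -0.39 to 0.37 for Pdcd4 and -0.38 to 0.42 for Tob1, where Foxo1 without LT-HSC 2 had no value, its UMI count being 0 in that class of LT-HSC 1. Between the classes Tob1 ranged from -0.28 to 0.035. Where a gate was left with 1 library, that library is assumed to vary like the other gate's.

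Settings with 0 members called held 0 members (DESeq2) or 1 (edgeR without cells of other types) at an unadjusted p below 0.05 between the gates, and 2 (edgeR, no replicate block) or 2 (edgeR, below the median depth) between the classes. Removing cells of other types by the full lists could not be run between the classes, since fewer than 20 cells remained in a class. Depth limits LT-HSC 1 most: at a floor of 26.0 CPM, Foxo1 and Ccng1 could not be told from 0 in its kept cells.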
